A study of Homo sapiens with 6 samples.

Results

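The H3K27ac peak lists of the 2 acute myeloid leukaemia (AML) lines without knockdown were compared with each other, namely the library labelled Kasumi-1 NC and the library labelled MV4-11 NC. Their members were all peaks of these 2 lists on chromosomes 1 to 22 and X, which came to 22724 peaks for Kasumi-1 NC and 24491 for MV4-11 NC, 47215 of the 93160 peaks on these chromosomes in the 4 H3K27ac lists of the series. NC cells carried a control hairpin according to the study's methods and are called untreated in the labels. The other 2 lists came from the same lines with a hairpin against ANP32B (sh-ANP32B). Kasumi-1 is an established line from an AML with the RUNX1::RUNX1T1 fusion, and MV4-11 is an established line from an AML with a KMT2A fusion and an internal tandem duplication of FLT3. H3K27ac was profiled by CUT&Tag, in which an antibody guides a transposase to the modified chromatin. The replicates of each group had been merged before peaks were called, so that each line was represented by 1 list, no spread between replicates was available, and no difference between the lines carries a p-value. The lists gave positions and widths only, so read depth cannot be stated. With 1 library a line, a difference between lines and a difference between libraries cannot be told apart.

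Acetylation of lysine 27 of histone H3 marks active promoters and active enhancers. Promoters of broadly used genes carry the mark in most cell types, whereas distal marked regions differ more between cell types and often lie near the genes that give a cell its identity. In AML with RUNX1::RUNX1T1 the cells commonly resemble early granulocytic precursors with RUNX1T1, POU4F1, KIT, CD34 and MPO among the genes in use, and in AML with a KMT2A fusion the cells commonly use HOXA9, MEIS1 and genes of monocytes.

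The labels were first set against such line markers. Promoter peaks of Kasumi-1 markers, where present, ran with its label, whereas HOXA genes among the MV4-11 markers ran against the labels. A promoter peak was counted where any base of a peak lay within 2500 bases of the canonical start of a protein-coding gene. Among 12 Kasumi-1 markers, 8 (RUNX1T1, POU4F1, KIT, BAALC, TRH, CD200, MPO and GATA2) had no promoter peak in any of the 4 libraries. The same held for 9976 of all 19962 protein-coding genes. RUNX1T1, the fusion partner of RUNX1 in Kasumi-1, had 0 peaks over its whole gene of 148315 bases (chr8:91954972-92103286, minus strand) in all 4 libraries, and POU4F1, MPO, TRH and CD200 had 0 as well. The starts of KIT (70.3% GC within 500 bases to each side), BAALC (69.3%), GATA2 (67.6%), POU4F1 (66.5%) and TRH (66.3%) were above the median of all genes, 61.3%. Those of MPO (54.6%), RUNX1T1 (54.4%) and CD200 (51.4%) were below it. At CD34 promoter peaks covered 180 bases in the library labelled Kasumi-1 and 0 in MV4-11 NC. PRTN3, ELANE and JUP also had more in the library labelled Kasumi-1. Thus 4 of the 4 markers with a peak ran with the label, and the 8 without one did not separate the lines. Most marked genes ran in that direction, markers or not. Among genes marked in both NC libraries, 5575 had more bases in the library labelled Kasumi-1 and 1286 in MV4-11 NC. A further 2662 were marked only in the former and 278 only in the latter. Within 1000 bases of its start CD34 had no peak in either NC library. JUP had 1253 bases in the library labelled Kasumi-1 NC and 0 in the other 3 libraries. Distal bases within 100 kb were higher in the library labelled Kasumi-1 at 6 of the 12 (GATA2 6303 and 4441, MPO 3805 and 2419, TRH 3948 and 2066 among them) and in MV4-11 NC at 5 (KIT 2769 and 5423 among them). Of the 12 markers fixed for MV4-11, 8 had a promoter peak, 6 with more bases in the library labelled Kasumi-1 and 2 with more in MV4-11 NC. More bases in the library labelled Kasumi-1 was again the direction of most marked genes. The 6 were PBX3 and 5 genes of the HOXA cluster, which lie side by side, with HOXA7, HOXA9 and HOXA10 at 5001, 4335 and 5001 of 5001 possible bases in the library labelled Kasumi-1 and 0, 769 and 2648 in MV4-11 NC. The 2 were LYZ (0 and 683) and MEIS1 (3103 and 3337). Since the HOXA genes ran against the labels, the library labelled Kasumi-1 is called Kasumi-1-labelled below. Every direction between lines is a direction between the libraries so labelled. RUNX1T1, unmarked in all 4 libraries, did not separate the lines. A promoter peak was present at 14 of 17 myeloid identity genes in the Kasumi-1-labelled library and 12 of 17 in MV4-11 NC, where the shares over all protein-coding genes were 47.8% and 35.8%. Of 20 genes typical of other tissues, 1 had a promoter peak in either library, PECAM1, an adhesion molecule of endothelium that leukocytes also carry. Of 22 lymphoid genes, 4 had one in the Kasumi-1-labelled library and 2 in MV4-11 NC.

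The Kasumi-1-labelled list covered 32.66 Mb with a median peak width of 1045 bases, and the MV4-11 list covered 27.87 Mb with a median width of 815 bases. The lists also differed in base composition. The median GC content of peaks was 55.4% in the Kasumi-1-labelled library and 51.3% in MV4-11 NC. Only 25 of 22724 Kasumi-1-labelled peaks (0.11%, 95% Wilson interval 0.0745 to 0.162) had a GC content under 40%, against 2944 of 24491 MV4-11 peaks (12.02%, 11.6 to 12.4). The sh-ANP32B libraries held 0.185% and 10.9% of such peaks, so that the difference in composition was present in both libraries of each line. GC content and width moved with nearly every difference described below, their values are given beside the results, and their part in the results was not tested. The Wilson intervals here and below cover counting error over the peaks or genes of a list and not variation between cultures.

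The contrast is shown by example in the sequence before the start of genes among the 10 with most bases under promoter peaks in 1 library and none in the other. The 250 bases before the RefSeq start (GRCh38.p14) are shown for 2 genes with promoter bases only in the Kasumi-1-labelled library, HOXA7 (chr7:27156676-27156925, minus strand) and TRAF4 (chr17:28743761-28744010, plus strand), and for 2 with such bases only in MV4-11 NC, GPR18 (chr13:99258380-99258629, minus strand) and MNDA (chr1:158831101-158831350, plus strand). Capitals mark each C followed by G, of which HOXA7 and TRAF4 held 28 each, MNDA 2 and GPR18 0. GC content was 70.8% for HOXA7, 71.6% for TRAF4, 36.0% for MNDA and 34.0% for GPR18. WIPF1, also marked only in MV4-11 NC, was an exception in this window, with 78.8% GC and 36 such pairs before a RefSeq start that is not its canonical start. The peak over HOXA7 extends beyond its window, to places where MV4-11 NC had peaks.
HOXA7: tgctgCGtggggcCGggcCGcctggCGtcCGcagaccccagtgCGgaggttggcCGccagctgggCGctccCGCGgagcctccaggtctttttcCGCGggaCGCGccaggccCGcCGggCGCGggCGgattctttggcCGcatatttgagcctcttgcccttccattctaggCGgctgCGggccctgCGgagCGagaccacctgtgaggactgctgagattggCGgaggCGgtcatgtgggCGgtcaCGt
TRAF4: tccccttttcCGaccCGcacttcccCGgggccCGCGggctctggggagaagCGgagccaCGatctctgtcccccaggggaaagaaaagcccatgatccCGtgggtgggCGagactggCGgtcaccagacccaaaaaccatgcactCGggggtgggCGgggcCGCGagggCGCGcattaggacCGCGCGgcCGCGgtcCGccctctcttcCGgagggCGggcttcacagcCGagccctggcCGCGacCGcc
GPR18: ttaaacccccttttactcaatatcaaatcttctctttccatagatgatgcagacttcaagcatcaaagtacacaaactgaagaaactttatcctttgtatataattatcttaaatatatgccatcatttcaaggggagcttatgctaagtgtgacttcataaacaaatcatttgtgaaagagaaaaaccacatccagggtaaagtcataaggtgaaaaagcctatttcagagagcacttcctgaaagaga
MNDA: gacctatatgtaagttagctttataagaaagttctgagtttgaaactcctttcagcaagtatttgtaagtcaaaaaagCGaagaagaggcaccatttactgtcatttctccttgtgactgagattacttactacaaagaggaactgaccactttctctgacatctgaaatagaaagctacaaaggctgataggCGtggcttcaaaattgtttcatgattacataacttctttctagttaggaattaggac

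Distal regions are shown in the same way by 1 peak of each library. The central 300 bases (hg38, plus strand) are shown for a peak of 5589 bases found only in the Kasumi-1-labelled NC list, 15153 bases from the start of TRIM7 (chr5:181189894-181190193), and for a peak of 5089 bases found only in the MV4-11 NC list, within an intron of ELF1 (chr13:41006299-41006598). Capitals again mark C followed by G. The region near TRIM7 held 20 of them in a peak of 58.4% GC, and the ELF1 intron held 1 in a peak of 34.2% GC. The pair was chosen for its contrast. In 4 further wide private peaks read in this way, the central bases held 11 and 5 in the Kasumi-1-labelled library (63.3% and 53.6% GC over the peak) and 1 and 5 in MV4-11 NC (36.6% and 34.2% GC), so that CG pairs were not always fewer in the MV4-11 peaks. ELF1 encodes an ETS-family transcription factor of blood cells.
TRIM7 distal: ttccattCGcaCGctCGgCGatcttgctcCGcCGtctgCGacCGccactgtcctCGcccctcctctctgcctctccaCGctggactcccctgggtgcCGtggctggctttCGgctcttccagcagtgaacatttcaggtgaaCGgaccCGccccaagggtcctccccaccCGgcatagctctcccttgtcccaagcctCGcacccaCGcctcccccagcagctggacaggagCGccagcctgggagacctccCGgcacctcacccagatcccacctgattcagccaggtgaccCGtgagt
ELF1 intron: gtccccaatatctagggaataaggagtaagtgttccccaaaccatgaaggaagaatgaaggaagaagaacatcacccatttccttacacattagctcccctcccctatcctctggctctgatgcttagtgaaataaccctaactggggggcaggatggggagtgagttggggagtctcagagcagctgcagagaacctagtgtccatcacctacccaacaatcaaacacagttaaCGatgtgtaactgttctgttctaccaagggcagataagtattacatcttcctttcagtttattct

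**Figure D1:**
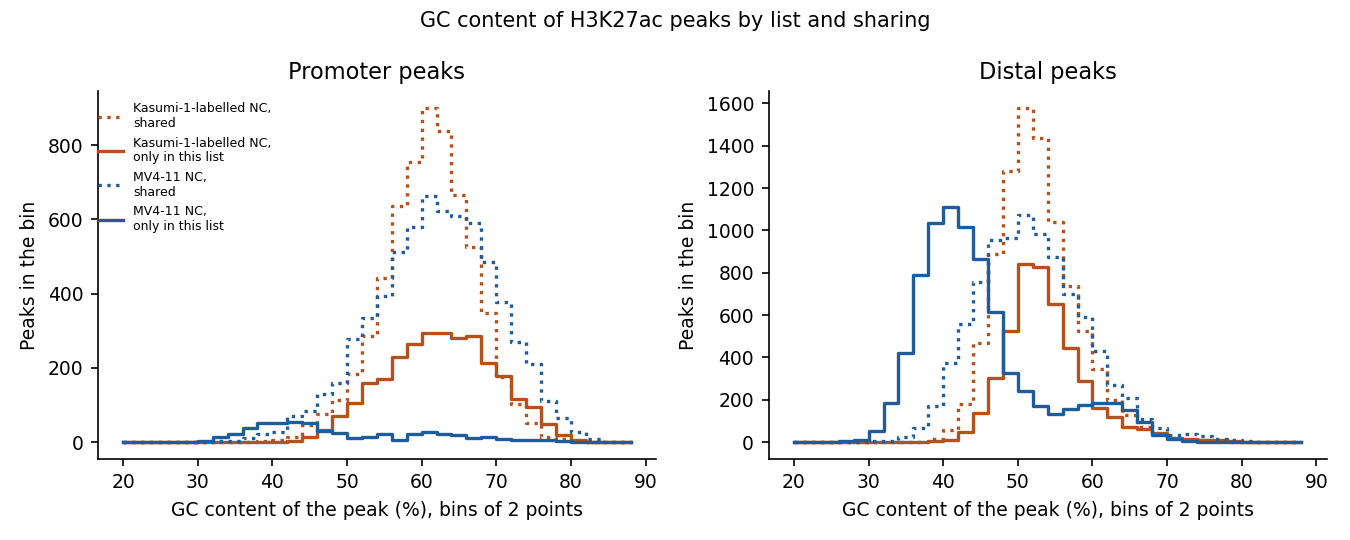
Number of peaks in bins of 2 percentage points of GC content, for promoter peaks (left) and distal peaks (right) of both NC libraries. Solid lines are peaks without a peak of the other NC list at the same place and dotted lines are shared peaks, and the distal peaks found only in MV4-11 NC centre on a lower GC content (median 42.7%) than the other 3 distal classes (51.5% to 53.0%).

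Peaks of the 2 lists overlapped to a similar extent in both directions. Of the Kasumi-1-labelled peaks, 67.0% (66.4 to 67.7) overlapped a MV4-11 peak by at least 1 base and 33.0% did not, and of the MV4-11 peaks 65.2% (64.6 to 65.8) overlapped and 34.8% did not. Promoters and distal regions behaved in opposite ways. Of the 7187 promoter peaks of MV4-11 NC, 92.5% (91.9 to 93.1) were shared and 540 were not, whereas 68.3% (67.3 to 69.2) of the 9077 promoter peaks of the Kasumi-1-labelled library were shared and 2881 were not. At distal sites MV4-11 NC had the larger private set, with 7985 of 17304 peaks not shared (53.9% shared, 53.1 to 54.6), against 4608 of 13647 in the Kasumi-1-labelled library (66.2% shared, 65.4 to 67.0). Promoter peaks made up 39.9% (39.3 to 40.6) of the Kasumi-1-labelled list and 29.3% (28.8 to 29.9) of the MV4-11 list. The share of distal peaks held in common fell with distance from a gene in MV4-11 NC, from 61.5% within 10 kb of a start to 42.7% beyond 100 kb, and ran from 60.8% to 69.2% over the same distances in the Kasumi-1-labelled library. Distal peaks found only in MV4-11 NC lay at a median of 39530 bases from the nearest start and those found only in the Kasumi-1-labelled library at 26430 bases.

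Both GC content and width separated shared from unshared peaks. Peaks were divided into 5 classes of GC content with limits common to both lists (46.4%, 51.6%, 56.3% and 62.3%). Of the distal MV4-11 peaks in the poorest class, 72.6% (71.6 to 73.6; 5613 of 7727) were not shared, against 14.4% (13.1 to 15.8) in the middle class and 38.3% (35.6 to 41.1) in the richest. In the Kasumi-1-labelled library the poorest class held only 1083 distal peaks, of which 21.5% (19.2 to 24.1) were not shared, and the unshared share was 37.3% in the middle class and 42.8% in the richest. For promoter peaks of MV4-11 NC the unshared share was 54.6% (50.3 to 58.8) in the poorest class and 2.93% and 2.85% in the 2 richest, where the Kasumi-1-labelled library had 25.9% and 36.4%. The larger private promoter set of the Kasumi-1-labelled library was thus present in each of the 4 classes other than the poorest. Width acted in the same direction in both lists, since 60.6% of the narrowest Kasumi-1-labelled peaks and 6.65% of the widest were not shared, against 58.2% and 10.1% in MV4-11 NC.

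**Figure D2:**
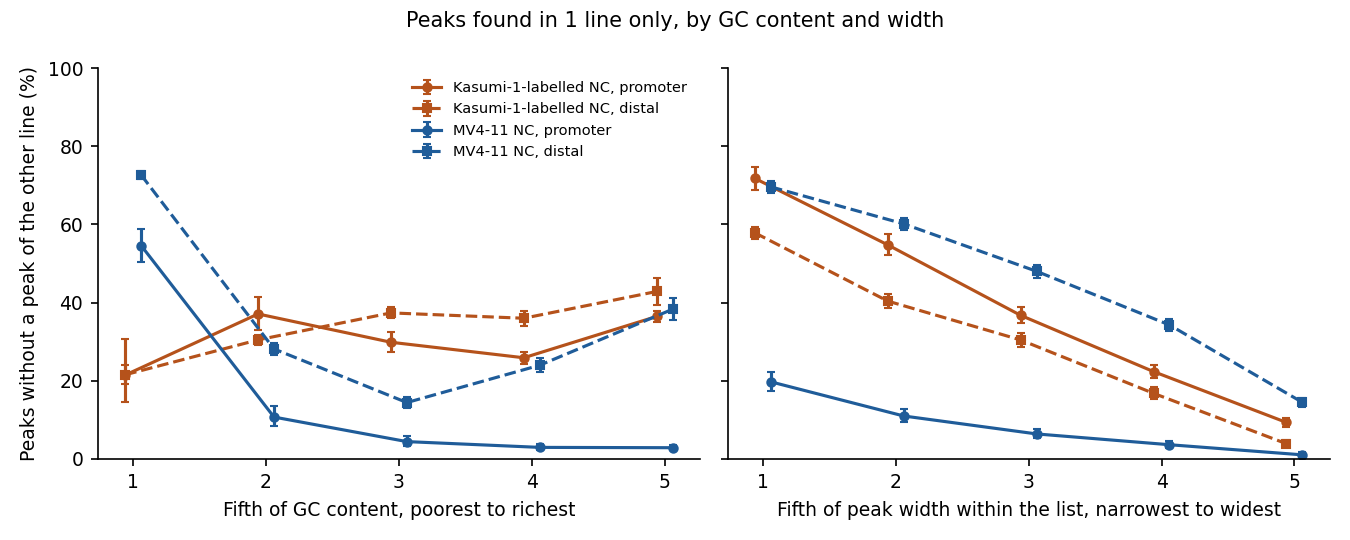
Percent of peaks without a peak of the other NC list, by 5 classes of GC content with limits common to both lists (left) and by 5 classes of width within each list (right), for promoter and distal peaks of both NC libraries with 95% Wilson intervals as bars. In MV4-11 NC the distal share runs from 72.6% in the poorest GC class to 14.4% in the middle class, and in both lists the share falls from the narrowest to the widest peaks.

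Peaks that matched 1 to 1 between the lists were wider in the Kasumi-1-labelled library, and more so at promoters. Over 11953 matched peaks the median log2 ratio of width, Kasumi-1-labelled over MV4-11, was 0.32 and 67.0% were wider in the former. At 5300 promoter matches the ratio was 0.53 (median widths 1520 and 954.5 bases), and at 6653 distal matches 0.13 (1049 and 1016 bases). The direction turned with base composition, since the median ratio was -0.80 over the 1136 matches in the poorest GC class, -0.08 in the second, 0.37 in the middle class, 0.43 in the fourth and 0.68 in the richest. Matched peaks were therefore wider in MV4-11 NC where DNA was GC-poor and wider in the Kasumi-1-labelled library where it was GC-rich.

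Most GC-rich chromosomes had more bases under peaks in the Kasumi-1-labelled library. The ratio of bases under peaks, Kasumi-1-labelled over MV4-11, ranged from 0.757 on chromosome 13 (38.5% GC) to 1.80 on chromosome 19 (47.9% GC), with a ratio above 1 on 18 of 23 chromosomes. Chromosomes 16, 17 and 22, with 44.6% to 47.0% GC, had ratios of 1.54, 1.45 and 1.55. Chromosomes 21 (40.9% GC, ratio 0.867) and X (39.5%, 1.26) departed from that order. The number of distal peaks was lower in the Kasumi-1-labelled library on 23 of 23 chromosomes (ratio 0.604 to 0.999), and the number of promoter peaks was higher on 22 of 23. Of 2330 windows of 1 Mb with any peak, 1165 had more bases under peaks in the Kasumi-1-labelled library and 1163 in MV4-11 NC. The 3 windows with the largest excess in the former lay at chr19:1000001-2000000 (139940 and 66238 bases, 39 gene starts), chr17:81000001-82000000 (179027 and 109241 bases, 36 starts) and chr16:30000001-31000000 (118877 and 53619 bases, 47 starts). Those with the largest excess in MV4-11 NC lay at chr2:144000001-145000000 (11789 and 45508 bases, 2 starts, ZEB2 among the genes there), chr3:172000001-173000000 (13531 and 45091 bases, 5 starts, with FNDC3B) and chr2:68000001-69000000 (27060 and 52270 bases, 14 starts). The windows named for the Kasumi-1-labelled library each held more starts than those named for MV4-11 NC.

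At the level of genes, the promoters marked in MV4-11 NC were nearly a subset of those marked in the Kasumi-1-labelled library. Among 19962 protein-coding genes, 6875 (34.4%) had a promoter peak in both NC libraries, 2662 (13.3%) only in the Kasumi-1-labelled library, 278 (1.39%) only in MV4-11 NC and 10147 in neither. Of the 7153 genes marked in MV4-11 NC, 96.1% were also marked in the Kasumi-1-labelled library, and of the 9537 genes marked there 72.1% were also marked in MV4-11 NC. At the 6875 shared genes a median of 1724 bases lay under promoter peaks in the Kasumi-1-labelled library and 1072 in MV4-11 NC. The difference was 1000 bases or more in favour of the Kasumi-1-labelled library at 3202 genes (16.0%) and in favour of MV4-11 NC at 150 genes (0.751%). These shares are the background for the gene lists below. All of the 3202 and 150 genes were among the 9815 with a promoter peak in either library. By the GC content of the gene start, the share of genes marked only in MV4-11 NC ran from 2.42% (1.99 to 2.95) in the poorest of 5 classes to 0.602% (0.405 to 0.894) in the richest. In the poorest class the genes marked only in MV4-11 NC were 19.9% of all genes marked there, and in the richest 1.37%. The share of marked genes that only the Kasumi-1-labelled library had was 27.2%, 28.7%, 28.1%, 27.1% and 28.1% from the poorest to the richest class.

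The knockdown libraries of each line were the only other libraries of these cells, and although they are not replicates of NC they show how far the private calls recurred. Of the distal peaks found only in the Kasumi-1-labelled NC list, 79.5% (78.3 to 80.6) lay under a peak of the Kasumi-1-labelled sh-ANP32B list and 15.3% (14.3 to 16.4) under one of the MV4-11 sh-ANP32B list. Of those found only in the MV4-11 NC list, 59.8% (58.8 to 60.9) recurred in MV4-11 sh-ANP32B and 8.97% (8.36 to 9.61) lay under a peak of the Kasumi-1-labelled sh-ANP32B list. Private promoter peaks recurred at 80.1% (78.6 to 81.5) and 49.8% (45.6 to 54.0) in the own sh-ANP32B list. By gene, 1945 of the 2662 promoters marked only in the Kasumi-1-labelled library and 113 of the 278 marked only in MV4-11 NC kept that class between the sh-ANP32B libraries. The private promoter peaks had a median width of 878 bases in the Kasumi-1-labelled library and 506 in MV4-11 NC.

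The genes with most bases under promoter peaks in the Kasumi-1-labelled library and none in MV4-11 NC were led by HOXA7, a homeobox transcription factor, and TRAF4, of the TRAF adaptor family, each with 5001 bases against 0. The other 8 of the 10 ran from 4649 to 3983 bases and were ENSG00000291316 and its overlapping neighbour TMEM276, SAPCD2, ENSG00000198211, SOX12, a SOX-family transcription factor, ABHD15, ROGDI and ADAM15, a membrane protease. In the Kasumi-1-labelled sh-ANP32B library the 10 genes carried 2462 to 5001 bases, and in MV4-11 sh-ANP32B only HOXA7 (418 bases) and SAPCD2 (272 bases) carried any. Their starts had 63.1% to 74.8% GC.

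The 10 leading genes of the opposite kind ran from 4067 to 2128 bases. ANKRD28 carried 4067 bases in MV4-11 NC and 0 in the Kasumi-1-labelled library, followed by GPR18, a G protein-coupled receptor of leukocytes (2704 bases), WIPF1, which acts with the actin regulator WASP (2616), and IFI16, an interferon-induced DNA sensor (2374). GLIPR1 carried 2361 bases, CXCL8, the neutrophil-attracting chemokine interleukin 8, 2306, and MNDA, a nuclear antigen of myeloid cells from the same family as IFI16, 2190. ENSG00000265118 and EVI2A, which overlap, carried 2135 and 2134 bases and MS4A6A, a membrane protein of monocytes and macrophages, 2128. In MV4-11 sh-ANP32B all 10 carried 1093 to 3186 bases, and in the Kasumi-1-labelled sh-ANP32B library IFI16 (494 bases) and GLIPR1 (355 bases) carried some and the other 8 none. Their starts had 34.3% to 40.7% GC, a range that does not overlap that of the 10 genes above.

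Among genes marked in both, the extent of the peaks differed most at the following genes. LPXN, a paxillin relative of leukocytes, had 1310 bases in the Kasumi-1-labelled library and 5001 in MV4-11 NC, TNFSF13B, the B-cell survival factor BAFF, 900 and 4155, ZEB2, a transcription factor of monocytes and dendritic cells, 1108 and 4346, and PIK3CG, the leukocyte PI3-kinase gamma, 808 and 3876. In the other direction MAP3K11 had 5001 and 523 bases, HOXA3 4953 and 543, PRTN3, a protease of neutrophil granules, 4603 and 396, GADD45B, a stress-response gene, 4398 and 70, and PTPA, a regulator of the phosphatase PP2A, 4529 and 425. The sh-ANP32B libraries gave 1314 and 5001 bases for LPXN and 4515 and 0 for GADD45B.

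Of the 19 gene lists the HOXA cluster had the highest share of members with at least 1000 bases more in the Kasumi-1-labelled library. HOXA genes encode the homeobox factors that sustain early blood progenitors, and the 5' members HOXA7, HOXA9 and HOXA10 are used in many leukaemias. Over chr7:27092993-27200091 the Kasumi-1-labelled NC library had 11 peaks over 44911 bases, the widest 12427 bases long, and MV4-11 NC had 14 peaks over 13769 bases, none longer than 1928 bases. The sh-ANP32B libraries gave 46429 and 12188 bases, close to the NC library of each line. Among its 11 genes, 5 were marked at the promoter in both, 3 only in the Kasumi-1-labelled library and 3 in neither. The shares of all genes in these classes were 34.4%, 13.3% and 50.8%. The difference reached 1000 bases at 8 of 11 genes against 16.0% of all genes, all in favour of the Kasumi-1-labelled library. Among the 9815 genes with a peak in either library, 3202 had such a difference in that direction. HOXA3 had 4953 and 543 bases, HOXA13 4297 and 1346, HOXA11 4079 and 2442, and HOXA6 1281 and 0, and neighbouring genes share peaks. Of the 10 HOXB genes only HOXB3 had a peak, with 372 bases in the Kasumi-1-labelled library. The median GC content of HOXA starts was 62.0%.

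**Figure D3:**
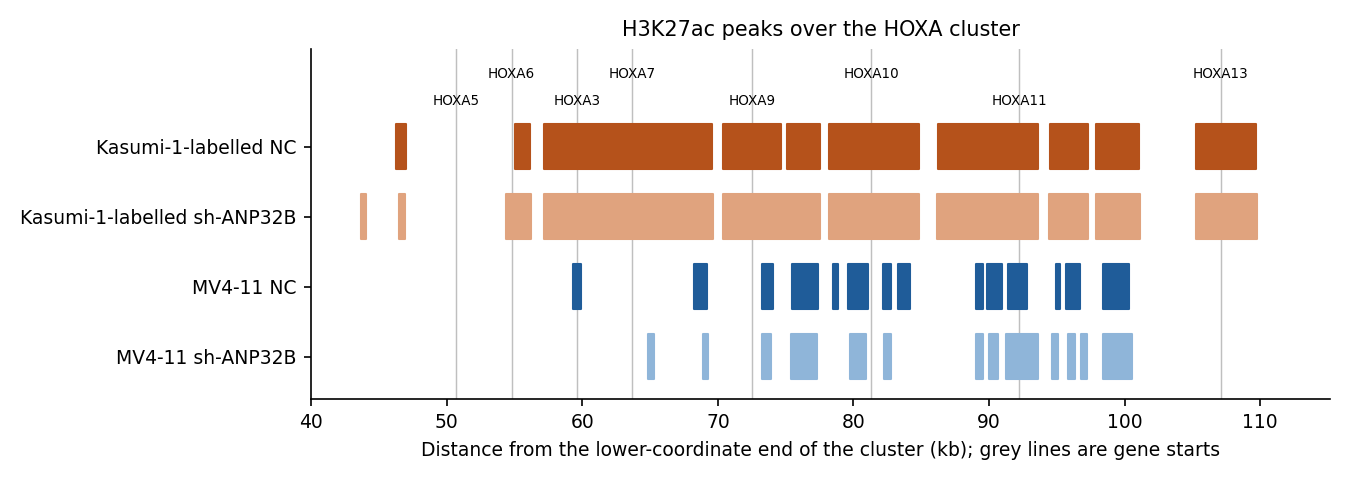
Peaks of the 4 H3K27ac libraries from HOXA5 to HOXA13, with distance in kb from the lower-coordinate end of the HOXA cluster and grey lines at the canonical gene starts. The Kasumi-1-labelled libraries have broad peaks from HOXA7 to HOXA13 (44911 and 46429 bases over the whole cluster), and the MV4-11 libraries have short separate peaks (13769 and 12188 bases).

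Other targets of KMT2A fusion proteins were divided between the libraries. Of 20, 11 had a promoter peak in both, 2 only in the Kasumi-1-labelled library and 7 in neither, against 34.4%, 13.3% and 50.8% of all genes. A difference of 1000 bases or more fell on the Kasumi-1-labelled side at 4 and on the MV4-11 side at 2. The shares over all genes were 16.0% and 0.751%, or 3202 and 150 of the 9815 genes with a peak in either library. CPEB2, a translational regulator, had 3622 and 344 bases, PBX3, a partner of HOX and MEIS factors, 2616 and 0, and CDK6, a cell cycle kinase, 2834 and 455. ZEB2 and MBNL1, a splicing regulator, were the 2 with more in MV4-11 NC, and MBNL1 had 1686 and 4037 bases. MEIS1, a cofactor of HOXA9, had 3103 and 3337 bases in the NC libraries and 3264 and 3123 in the sh-ANP32B libraries, so that its direction was not the same in the 2 pairs. SKIDA1 and LAMP5 had no promoter peak in either. Within 100 kb of their starts the 20 genes summed to 42934 bases of distal peaks in the Kasumi-1-labelled library and 81649 in MV4-11 NC, with more in MV4-11 NC at 11 genes and more in the other at 4. MBNL1 alone held 3201 and 24284 of these bases, a large part of the difference between the sums. FLT3, the receptor tyrosine kinase that carries an internal tandem duplication in MV4-11, had 2028 promoter bases in the Kasumi-1-labelled library and 299 in MV4-11 NC.

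Genes of neutrophil granules split by gene and by base composition. PRTN3, ELANE and AZU1, the genes of proteinase 3, neutrophil elastase and azurocidin, lie side by side on chromosome 19 and were broader in the Kasumi-1-labelled library, with 4603 and 396, 3074 and 420, and 4498 and 1491 bases. In the sh-ANP32B libraries PRTN3 had 4701 and 0 bases, ELANE 2547 and 0, and AZU1 4183 and 1423. RNASE2, an eosinophil ribonuclease, SRGN, the granule proteoglycan serglycin, and MS4A3, a membrane protein of granulocyte-monocyte precursors, went the other way, with 2152 and 3600, 1706 and 2814, and 0 and 1298 bases. LYZ, the lysozyme gene, had 0 in the Kasumi-1-labelled library and 683 in MV4-11 NC, and 0 and 324 in the sh-ANP32B libraries. Over the 20 genes, 10 were marked in both, 2 only in MV4-11 NC, 8 in neither and 0 only in the Kasumi-1-labelled library, where the background was 13.3%. The starts of the 4 genes with at least 1000 bases more in the Kasumi-1-labelled library had a median of 60.7% GC, and those of the 3 with at least 1000 more in MV4-11 NC 44.5%. Differences of that size were found at 16.0% and 0.751% of all genes. CTSG, one of the former 4 with 2789 and 1503 bases, changed direction within 1000 bases of its start, where the difference was -214 bases.

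Monocyte and macrophage genes were marked in neither library at 11 of 28, in both at 7, only in the Kasumi-1-labelled library at 7 and only in MV4-11 NC at 3. That is 3 of 28 against 1.39% of all genes for MV4-11 NC and 7 of 28 against 13.3% for the Kasumi-1-labelled library. The shares of all genes marked in both and in neither were 34.4% and 50.8%. TLR4, the receptor for bacterial lipopolysaccharide, had 535 bases in the Kasumi-1-labelled library and 2951 in MV4-11 NC, with 522 and 2917 in the sh-ANP32B libraries, and FCGR1A, a high-affinity Fc receptor, had 1029 and 2390. ITGAX, the integrin CD11c, had 2556 and 912 bases, KLF4, a transcription factor of monocytes, 1801 and 579, and ITGAM, the integrin CD11b, 885 and 0. CLEC7A, the beta-glucan receptor, had 0 and 616. CSF1R, the receptor for macrophage colony-stimulating factor, had no peak at its canonical start in any library, and its gene held 2 peaks in the Kasumi-1-labelled library and 3 in MV4-11 NC. The 3 genes marked only in MV4-11 NC had a median of 39.9% GC at the start and the 7 marked only in the other library 53.4%.

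**Figure D4:**
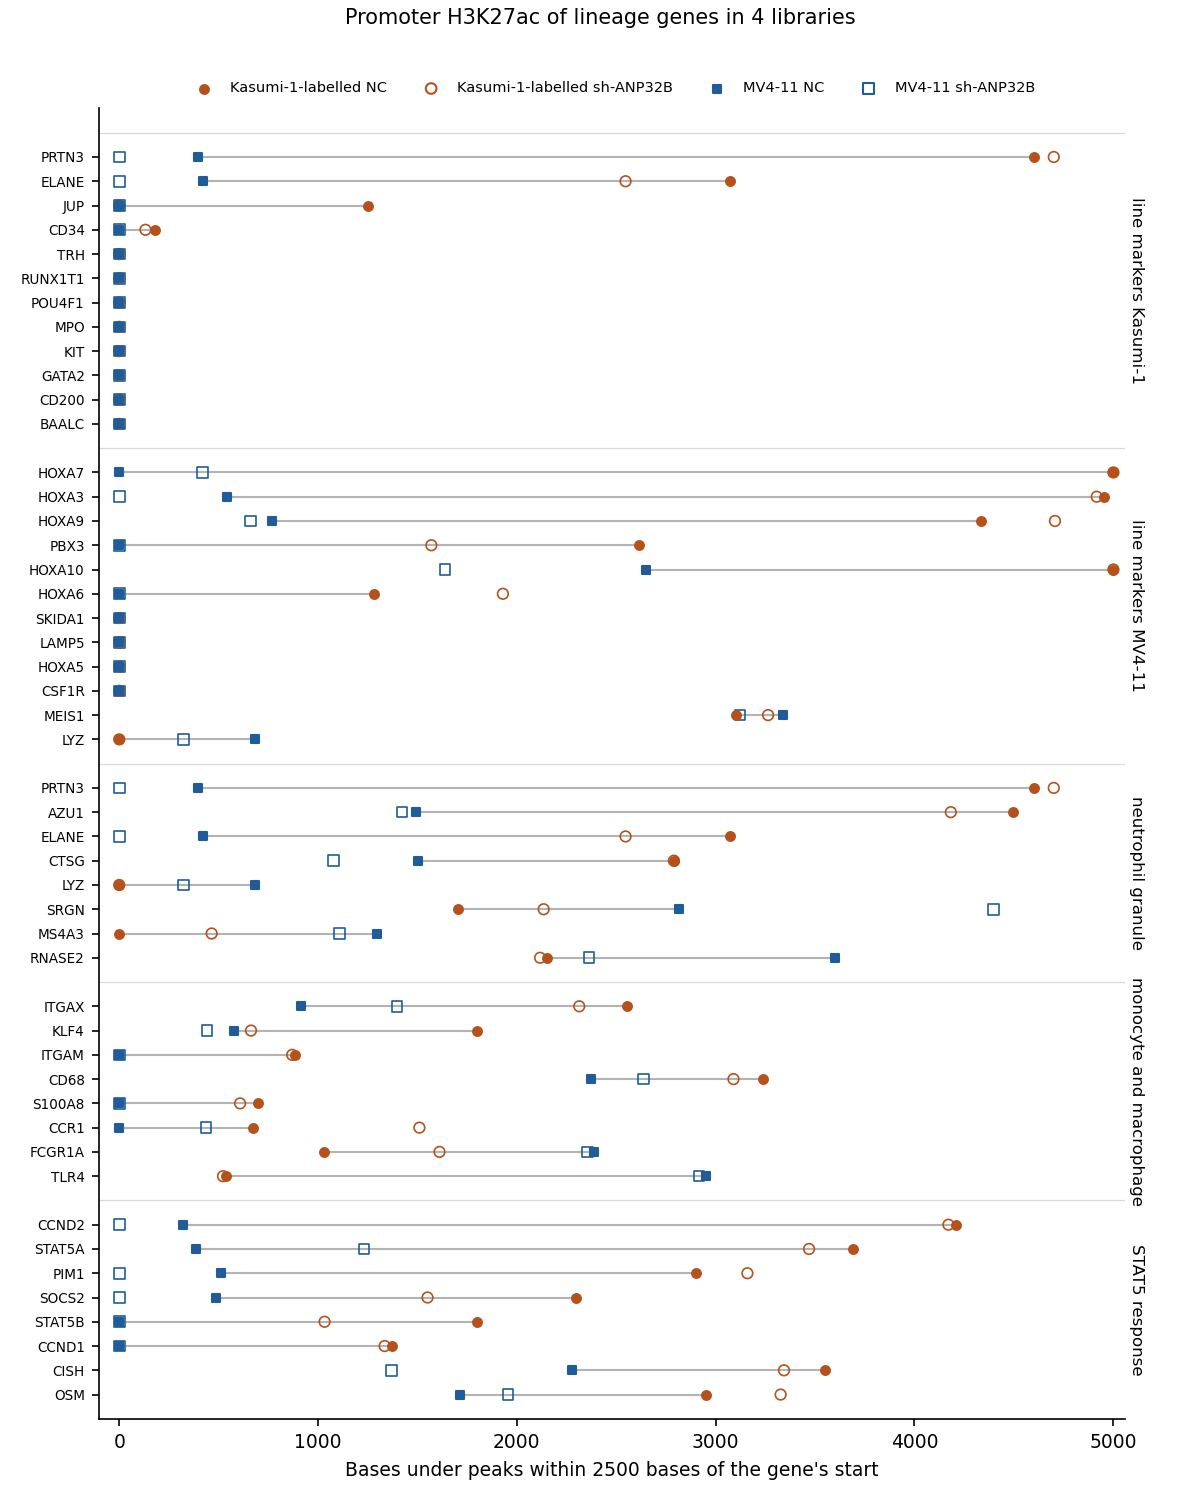
Bases under peaks within 2500 bases of the gene start for the 2 line marker lists and for the 8 marked genes with the largest difference in 3 further lists, with filled points for NC and open points for sh-ANP32B libraries. Points of the Kasumi-1-labelled libraries lie at higher values than those of MV4-11 at PRTN3, ELANE, CCND2 and the HOXA genes with a promoter peak. At TLR4 and FCGR1A they lie at lower values. Of the 12 Kasumi-1 markers, 8 lie at 0 in all libraries.

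General myeloid genes were marked in both libraries, more broadly in the Kasumi-1-labelled one. Of 17, 10 were marked in both, 4 (CD33, NFE2, ID2 and IRF8) only there and 2 only in MV4-11 NC, against 34.4%, 13.3% and 1.39% of all genes. A difference of at least 1000 bases fell on the Kasumi-1-labelled side at 9 and on the MV4-11 side at 0. The shares over all genes were 16.0% and 0.751%, or 3202 and 150 of the 9815 genes with a peak in either library. The starts of the list had a median of 63.2% GC. ID2, an inhibitor of basic helix-loop-helix factors, had 1713 and 0 bases, CORO1A, an actin-binding protein of leukocytes, 3423 and 1821, NFE2, a factor of erythroid and megakaryocytic cells, 1501 and 0, and CD33, a surface marker of myeloid cells, 1464 and 0. CEBPA and CEBPB, the C/EBP factors of granulocytes and monocytes, had 3148 and 1722, and 3635 and 2229 bases, and also long stretches of distal peaks within 100 kb in both libraries, 45017 and 41716 for CEBPA. PTPRC, the pan-leukocyte antigen CD45, had 0 and 403 bases with 34.2% GC at its start.

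Genes that answer to cytokines were broader in the Kasumi-1-labelled library. All 14 genes of the STAT5 response had a peak in at least 1 library, 13 with more bases in the Kasumi-1-labelled library. The excess there was at least 1000 bases at 8. It was so at 16.0% of all genes, or 3202 of the 9815 with a peak in either library. More bases there was also the direction of 5575 of the 6875 genes marked in both. CCND2, a cyclin, had 4211 and 322 bases, STAT5A 3693 and 385, PIM1, a kinase, 2900 and 511, and SOCS2, a feedback inhibitor, 2297 and 489. In the sh-ANP32B libraries CCND2 had 4171 and 0 bases. The median difference over the list was 1255 bases, against 658 over all 9815 genes with a peak in either library, and the median GC content of the starts was 65.3%. Of 22 cytokine receptors, 12 were marked in both and 3 only in the Kasumi-1-labelled library, against 34.4% and 13.3% of all genes. The list was led by IL3RA, the interleukin 3 receptor, with 1867 and 0 bases, FLT3, TNFRSF1B, a TNF receptor, with 3187 and 1744, and IL1RAP, the coreceptor of interleukin 1, with 1343 and 0. IL2RG, the chain shared by several interleukin receptors, had more in MV4-11 NC, 2229 and 3432 bases. Early response genes of the AP-1 family and their companions were marked in both at 16 of 20, against 34.4% of all genes. At least 1000 bases more lay in the Kasumi-1-labelled library at 8, against 16.0% of all genes and 3202 of the 9815 with a peak. Among the 8 were SPRY4, an inhibitor of receptor kinase signalling (3746 and 1272), FOSL2 (5001 and 2844), DUSP6, a phosphatase of ERK kinases (4255 and 2343), and FOSB (1786 and 0). The starts of the list had a median of 65.4% GC.

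Genes linked to the RUNX1::RUNX1T1 fusion were broader in the library labelled Kasumi-1, and RUNX1T1 itself was unmarked in both libraries. Of 18, 8 were marked in both, 5 only in the Kasumi-1-labelled library, 0 only in MV4-11 NC and 5 in neither. Over all genes 34.4% were marked in both, 13.3% only in the Kasumi-1-labelled library and 50.8% in neither. At least 1000 bases more lay there at 11 of the 18, against 16.0% of all genes and 3202 of the 9815 with a peak in either library. The median GC content of starts was 65.4% for the list and 66.4% for the 11. UBASH3B, a phosphatase that curbs receptor signalling, had 2099 and 0 bases, RUNX3 3162 and 1148, OGG1, a DNA repair glycosylase, 2667 and 910, and CDKN1A, the cell cycle inhibitor p21, 2533 and 914. Stem and progenitor genes were unmarked at 13 of 22, against 50.8% of all genes. The largest differences were at HHEX, a homeobox factor (3717 and 2500), and RUNX1 (2689 and 3790). The canonical start of RUNX1 had 43.6% GC.

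CIITA, the master regulator of MHC class II genes, was marked only in the Kasumi-1-labelled library, with 2537 bases in NC and 2745 in sh-ANP32B against 0 in both MV4-11 libraries. Within 100 kb to each side of its start the Kasumi-1-labelled NC library had 11 peaks over 20679 bases and MV4-11 NC 5 peaks over 6506 bases. CD74, the invariant chain that CIITA also controls, was marked in both (2259 and 2408 bases), and the other 10 of the 12 MHC class II genes had no promoter peak in either library. Erythroid and megakaryocyte genes were unmarked at 16 of 22 and mast cell, basophil and eosinophil genes at 11 of 14. The share of all genes marked in neither library was 50.8%. In the latter list TPSAB1, a mast cell tryptase, carried 4080 and 4081 bases. Of the lymphoid genes with a peak, NKG7, a granule protein of killer cells, had 3391 and 1613 bases and EBF1, a B-cell transcription factor, 1515 and 0.

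The proteasome, whose genes are used in all cells, served as a list outside the lineages. Of 31 genes, 27 were marked in both libraries, against 34.4% of all genes. More bases lay in the Kasumi-1-labelled library at 15 and in MV4-11 NC at 15, and the median difference over the 30 marked genes was 16.5 bases. Over all 6875 genes marked in both it was 530 bases. PSMC5 had 1713 and 461 bases, PSMC4 1462 and 390, PSMA6 1941 and 879, and PSMB3 1339 and 393, while PSMA3 had 800 and 1613. The starts of the list had a median of 57.0% GC, within the second of the 5 classes, where the median difference over marked genes was 500 bases. The members thus divided evenly between the libraries.

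Distal peaks gathered near different genes in the 2 libraries. Bases under distal peaks within 100 kb of the start were most in excess in the Kasumi-1-labelled library at GRAMD4 (33028 and 13251), INPP5A, an inositol phosphatase (37064 and 17721), NEK6, a mitotic kinase (41809 and 22498), CELSR1 (30914 and 12600) and SPN, the leukocyte sialoglycoprotein CD43 (26324 and 8846). In MV4-11 NC they were most in excess at FNDC3B (8517 and 39270), ATP8B4, a phospholipid transporter (5930 and 27765), MBNL1 (3201 and 24284), and PIGB and PIGBOS1, which share a start region (6632 and 27624). The sh-ANP32B libraries kept the order at all of these, for example 32245 and 11048 at GRAMD4 and 12012 and 32677 at FNDC3B. Over all genes the median was 483 bases in the Kasumi-1-labelled library and 787 in MV4-11 NC, and 6532 genes had more in the former and 6453 in the latter. Around TLR4, the 200001 bases centred on its start held 1 peak of 535 bases in the Kasumi-1-labelled library and 8 peaks over 11434 bases in MV4-11 NC. Around ZEB2 the widest peak was 3459 bases in the former and 14172 in the latter.

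The widest distal peaks found in 1 NC list only lay in introns and between genes in both libraries. In the Kasumi-1-labelled list the first was chr17:74602118-74607989 (5872 bases), 12770 bases from the start of CD300LD in a cluster of inhibitory and activating receptors of myeloid cells, although both sh-ANP32B lists had a peak there. It was followed by the region near TRIM7 shown above, chr11:73187276-73192592 28347 bases from P2RY2, a nucleotide receptor (5317 bases), chr9:129606972-129611029 in an intron of NTMT1 (4058 bases) and chr5:132464038-132467972 in an intron annotated to IRF1, the interferon regulatory factor, and an overlapping gene (3935 bases). Among the rest, 2 lay in introns of PLXDC1 (3621 bases) and NTNG2 (3619 bases), 1 of 3875 bases lay 52510 bases from ZCCHC14, and chr21:6369003-6372937 lay 4150613 bases from the nearest start, that of TPTE. All 10 were found in the Kasumi-1-labelled sh-ANP32B list and 4 also in the MV4-11 sh-ANP32B list.

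In MV4-11 NC the widest was chr13:91211418-91218441 (7024 bases), 183692 bases from the start of GPC5, then chr2:144700054-144706232 (6179 bases), 183024 bases from ZEB2, and chr15:50063440-50068772 (5333 bases) in an intron of ATP8B4. Introns of ELF1 held 2 of the 10 (5089 and 4898 bases), and the others lay in introns of VPS13B, KIAA1958, FNDC3B and DMXL2 and 191219 bases from PTGER4, a prostaglandin receptor. All 10 recurred in MV4-11 sh-ANP32B and 3 lay under a peak of the Kasumi-1-labelled sh-ANP32B list. GC content was 50.6% to 66.1% for the 10 of the Kasumi-1-labelled library and 34.2% to 39.3% for the 10 of MV4-11 NC.

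The letters of transcription factor motifs were counted on both strands in the central 300 bases of the 4608 and 7985 distal peaks found in 1 NC list only. AP-1 (TGANTCA, bound by FOS and JUN proteins) was present in 17.4% (16.6 to 18.3) of the MV4-11 peaks and 8.51% (7.74 to 9.35) of the Kasumi-1-labelled peaks. The motif of GATA factors (AGATAA) gave 18.4% and 7.62%, IRF (GAANNGAAA) 11.9% and 7.05%, PU.1 (GAGGAAGT) 5.02% (4.56 to 5.52) and 2.76% (2.32 to 3.27), C/EBP (TTGCNNCAA) 3.23% and 1.67%, HOX (TGATTTAT) 1.88% and 0.608%, and RUNX (TGTGGT) 25.8% (24.8 to 26.7) and 23.05% (21.9 to 24.3). SP/KLF (GGGCGG) and NRF1 (GCGCATGC) went the other way, with 5.03% in MV4-11 NC and 17.4% in the Kasumi-1-labelled library, and 0.388% and 2.11%. CAGCTG, an E-box, was present in 14.1% and 20.1%, and CACGTG, another E-box, in 3.90% and 6.55%. MEIS (TGACAG) gave 19.8% and 20.7%, ETS (CCGGAAGT) 0.276% and 0.499%, and MYB (TAACGG) 2.004% and 1.39%, each with overlapping intervals. Most of these letters are themselves rich or poor in GC, so the shares were also taken within 3 classes of GC content.

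Within those classes the intervals of the libraries were apart in the poorest and the middle class and overlapped in the richest for AP-1, GATA, SP/KLF and NRF1. AP-1 was present in 19.3% (18.3 to 20.3) of 5953 MV4-11 peaks and 8.59% (6.21 to 11.8) of 396 Kasumi-1-labelled peaks in the poorest class, in 18.7% (16.2 to 21.4) and 8.95% (7.81 to 10.2) in the middle class, and in 7.23% (5.89 to 8.86) and 8.05% (6.96 to 9.29) in the richest. PU.1 gave 5.43% (4.88 to 6.03) and 1.26% (0.540 to 2.92) in the poorest class, 4.55% and 2.64% with overlapping intervals in the middle class, and 3.32% and 3.16% in the richest. RUNX had overlapping intervals in the poorest and the middle class (26.1% and 24.7%, 27.8% and 27.1%), and 22.8% (20.5 to 25.3) against 18.6% (17.02 to 20.4) in the richest. Both E-boxes had overlapping intervals in all 3 classes, and SP/KLF had 1.58% and 12.4% in the poorest class and overlapping intervals in the richest. IRF went the other way in the richest class, with 3.32% (2.44 to 4.51) in MV4-11 NC and 5.99% (5.05 to 7.09) in the Kasumi-1-labelled library. AP-1 letters were more frequent in MV4-11 NC among shared distal peaks as well, at 13.3% (12.7 to 14.0) against 10.7% (10.1 to 11.3).

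**Figure D5:**
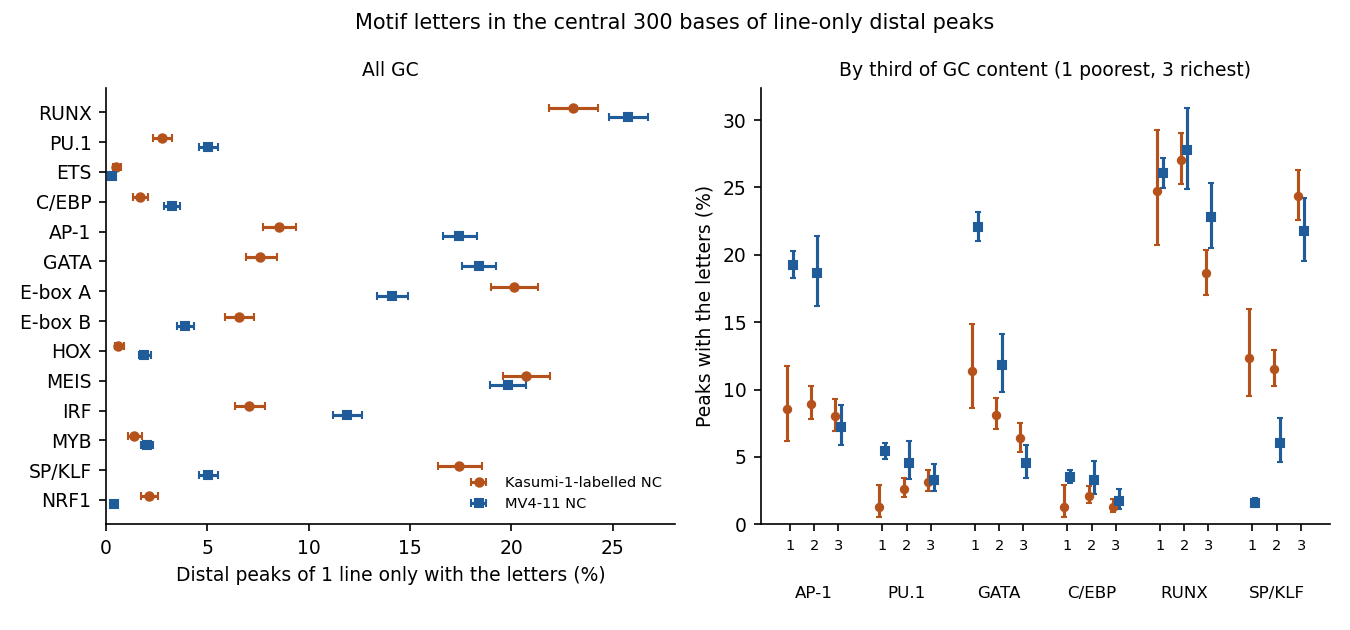
Percent of distal peaks found in 1 NC list only whose central 300 bases held the letters of each motif, with 95% Wilson intervals, for all peaks (left) and for 6 motifs within 3 classes of GC content (right), where E-box A is CAGCTG and E-box B is CACGTG. AP-1 letters are more frequent in MV4-11 NC in the poorest and middle classes (19.3% and 18.7%) and the intervals overlap in the richest (7.23% and 8.05%).

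Promoters with such letters are shown for 2 genes whose peaks were wider in MV4-11 NC, chosen because they hold them. Those of ANKRD28, GPR18, IFI16, MNDA, MS4A3, MS4A6A and WIPF1, marked only in MV4-11 NC, held 0 matches to AP-1 and 0 to PU.1, and that of STIP1, marked only in the Kasumi-1-labelled NC library, held 1 to AP-1, some of them before a RefSeq start other than the canonical one. The region near TRIM7 also held 1 match to AP-1, and the ELF1 intron shown held 0. The 250 bases before the RefSeq start (GRCh38.p14, plus strand) of CXCL8 (chr4:73740319-73740568) held 1 match to AP-1, in capitals, and those of TLR4 (chr9:117704153-117704402) held 2 matches to PU.1 on the opposite strand, in capitals. GC content was 37.6% and 46.4%. Of 35116 RefSeq promoters, 6.57% held the AP-1 letters and 2.17% those of PU.1 in the 250 bases before the start. A match is a description of the sequence only.
CXCL8: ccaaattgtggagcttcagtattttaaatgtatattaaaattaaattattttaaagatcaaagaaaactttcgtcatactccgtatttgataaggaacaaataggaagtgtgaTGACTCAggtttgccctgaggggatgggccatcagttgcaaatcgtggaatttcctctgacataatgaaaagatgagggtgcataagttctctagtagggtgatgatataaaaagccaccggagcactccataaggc
TLR4: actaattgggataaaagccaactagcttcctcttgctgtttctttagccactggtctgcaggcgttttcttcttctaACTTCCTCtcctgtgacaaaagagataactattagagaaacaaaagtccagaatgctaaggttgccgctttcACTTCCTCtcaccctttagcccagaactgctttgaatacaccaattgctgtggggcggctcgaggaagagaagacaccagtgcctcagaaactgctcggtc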

How the data were processed

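H3K27ac peak lists of 4 libraries were used, 1 per group, with groups taken from the labels. The IgG libraries are not analysed here. According to the submitters' processing notes, reads were aligned to hg38 with Bowtie2 2.4.4 and peaks called with MACS3 3.0, whereas the study's methods name MACS2. Duplicates were removed and replicates merged before calling, and use of IgG as the control is not given in the sources used here. Each deposited list holds positions (counted from 1) and lengths of peaks in bases, with no height, q-value or read total, so depth and its precision are unknown. Minimum width and smallest gap were 357 and 358 bases in the Kasumi-1-labelled NC list and 289 and 290 bases in the MV4-11 NC list, and 971 and 886 peaks on other sequences were left out.

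Starts were those of Ensembl canonical transcripts in GENCODE 44. Overlaps, bases under peaks within 2500 bases of a start, widths of 1 to 1 matches, distal bases within 100 kb, GC content and motif letters were computed in Python 3.11.15 (pandas 2.3.3, SciPy 1.17.1). The code was tested on simulated lists. Promoter sequences came from RefSeq by symbol, and all 6 promoters shown start where the GENCODE start lies.

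Members and gene lists were chosen with earlier results of these data known. Named were the line markers, up to 4 members of each other list with the largest difference (more for lineage lists), the 10 leading promoters and 10 widest distal peaks of each library, 5 genes by distal bases and 3 windows of 1 Mb. LPXN, TNFSF13B, PIK3CG, MAP3K11, GADD45B and PTPA, chosen for their width difference among shared genes, and several list members outside the first 4 were chosen after their values were seen. No test was run, because each line had 1 merged list. A few named genes are not reported here.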

Additional observations from a re-analysis of the deposited data

How the results depend on the processing

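No paired analysis was possible because each group was 1 merged list and no result came from a test. The share of Kasumi-1-labelled peaks that were shared moved from 67.0% to 34.7% with an overlap of at least 50% of each peak, 82.65% for peaks of at least 1000 bases set against the whole other list, 64.4% with 1 common minimum width and joining gap, 62.6% among the 15000 widest peaks of each list, and 64.3% in the middle GC class. For MV4-11 peaks it moved from 65.2% to 32.2%, 83.0%, 67.9% and 88.2% under the same settings without the widest peaks, among which it was 65.2%. The GC class and the width ratio by GC class were alternatives chosen after seeing the data. Requiring promoter peaks of at least 1000 bases absent from all peaks of the other list left 1360 genes marked only in the Kasumi-1-labelled library and 53 only in MV4-11 NC. The median log2 width ratio of 0.32 moved to 0.29 with common width and gap, 0.23 with matches of at least 50%, and 0.37 in the middle GC class, and was reversed in the poorest GC class, at -0.80. The share of peaks at promoters was 35.95% and 25.4% with a window of 1000 bases and 48.9% and 31.95% among the widest peaks. Genes marked only in MV4-11 NC and not in the Kasumi-1-labelled library, in both pairs of lists, were 113, and distal peaks private in both pairs 3058 and 4295. The cause of these shifts was not tested. With a window of 1000 bases, which holds at most 2001 bases, 294 of 307 list genes stayed in their class. Of 326 gene differences, most had been under 1000 bases in the main window and could not be counted as weakened or turned. Among those of 1000 bases or more, 35 fell under 1000 bases and CTSG alone turned direction, to -214 bases. Depth could not be assessed from the lists.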
